A study of Mus musculus with 4 samples.

Results

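The nuclear genes for the subunits of the oxidative phosphorylation machinery were examined in mouse tumour cells that had received mRNA for uniSTING or for EGFP. Members were chosen by symbol (the Ndufa, Ndufb, Ndufc, Ndufs, Ndufv, Sdha to Sdhd, Uqcr, Cyc1, Cox4 to Cox8 and Atp5 series, without assembly factors and pseudogene symbols) and by a minimum of 50 counts in every library. Of the 53647 genes listed, 100 matched by symbol, 9 of those carried pseudogene symbols, and 77 of the remaining 91 reached the minimum. They comprised 35 genes of complex I, 4 of complex II, 9 of complex III, 12 of complex IV and 17 of complex V. The minimum is the measured value that chose the members, so their presence in all libraries is not a result.

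The 2 groups were 4T1 cells, a mouse mammary carcinoma line, labelled wild type in both. The uniSTING group was given mRNA for a designed protein that mimics active STING, an adaptor of innate DNA sensing, and the Mock group was given mRNA for EGFP, a fluorescent protein. The carrier was a commercial transfection reagent or a lipid nanoparticle, without a statement of which was used for which library, and neither a dose nor a time is given. Each group held 2 libraries, numbered preparations 1 and 2 in the labels and called replicates 1 and 2 here, with 18843543 and 25071840 counts for uniSTING and 17502694 and 22039546 counts for Mock. Separate cultures are not stated for the preparations, so the p-values reflect the library-to-library spread alone, and this spread may be technical.

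Oxidative phosphorylation couples electron transport to ATP synthesis in the inner mitochondrial membrane. Complexes I and II pass electrons to ubiquinone, complex III passes them on to cytochrome c, complex IV reduces oxygen, and complex V uses the resulting proton gradient to make ATP. All except complex II combine nuclear-encoded subunits with subunits encoded by mitochondrial DNA. In complexes I, III and IV, a conserved catalytic core is surrounded by small supernumerary subunits, which act in assembly, stability and regulation.

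Cell identity was checked on marker lists. The 5 epithelial markers summed to 3521 and 3541 CPM (counts scaled to a common library size) in the uniSTING libraries, against 3485 and 3496 CPM in the Mock libraries, a sum carried by Krt8 and Krt18. Within it Krt19 was higher (log2 fold change 0.9998), as were Epcam (0.15) and Krt8 (0.05), and Cdh1 was lower (-0.20). The 8 leukocyte markers summed to 13.05 and 11.49 CPM, against 10.17 and 7.441 CPM, with Itgam at 0 in every library and Cd68, the most abundant of them, higher at 0.53. The 8 fibroblast and endothelial markers summed to 14.06 and 9.971 CPM, against 12.28 and 8.303 CPM, with Pdgfra higher at 0.37. Both of these last lists had the larger sum in the uniSTING library of each number, and their part in the results below was not tested.

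In both groups the libraries of number 1 stood apart from those of number 2 in a small set of genes. Genes of the pancreatic islet (named after their values were seen) had counts in number 1 alone: Ins2, which encodes insulin, had 113.0 and 0 CPM in uniSTING replicates 1 and 2, against 69.6 and 0 CPM in Mock replicates 1 and 2, and Gcg, which encodes glucagon, had 14.3 and 0 CPM, against 12.7 and 0 CPM. At 1 CPM or more in both libraries of number 1, 27 of the genes tested had no count in number 2, and 0 showed the opposite. None of the 27 was a member. The members' summary is therefore also given for number 2 alone and without each library of number 1.

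Most nuclear oxidative phosphorylation genes were moderately higher in uniSTING cells. Of the 77 members, 63 (81.8%) were higher at an adjusted p under 0.05 (edgeR), against a background of 24.9% of the 12972 genes tested. A single member, Atp5g1, was lower, against 25.4% of all genes tested, and 13 did not pass. In either direction 64 members passed, against 50.2% of all genes tested. The median log2 fold change of the members was 0.34, which is 1.27-fold, beside a median of 0.01 over all genes tested. Most of these effects were small, and 19 members (24.7%) were higher by at least 1.5-fold and past the threshold, against 5.19% of all genes tested, and 1 member, Ndufs6, was higher by at least 2-fold.

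The groups separated for most members. Both uniSTING libraries lay above both Mock libraries for 68 members (88.3%), against 37.8% of all genes tested, and the groups were apart in either direction for 70 (90.9%), against 75.1%. The groups overlapped for 7 members, namely Ndufa9, Ndufa10, Ndufa12, Ndufv1, Sdha, Sdhb and Uqcrc1. With each replicate number on its own, the median log2 fold change was 0.35 for number 1 and 0.36 for number 2, and 69 and 73 members were positive. The count of members called higher was 65 without uniSTING replicate 1 and 61 without Mock replicate 1 (edgeR). Bulk RNA cannot tell a change in RNA per cell from a change in the mixture of cells.

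**Figure D1:**
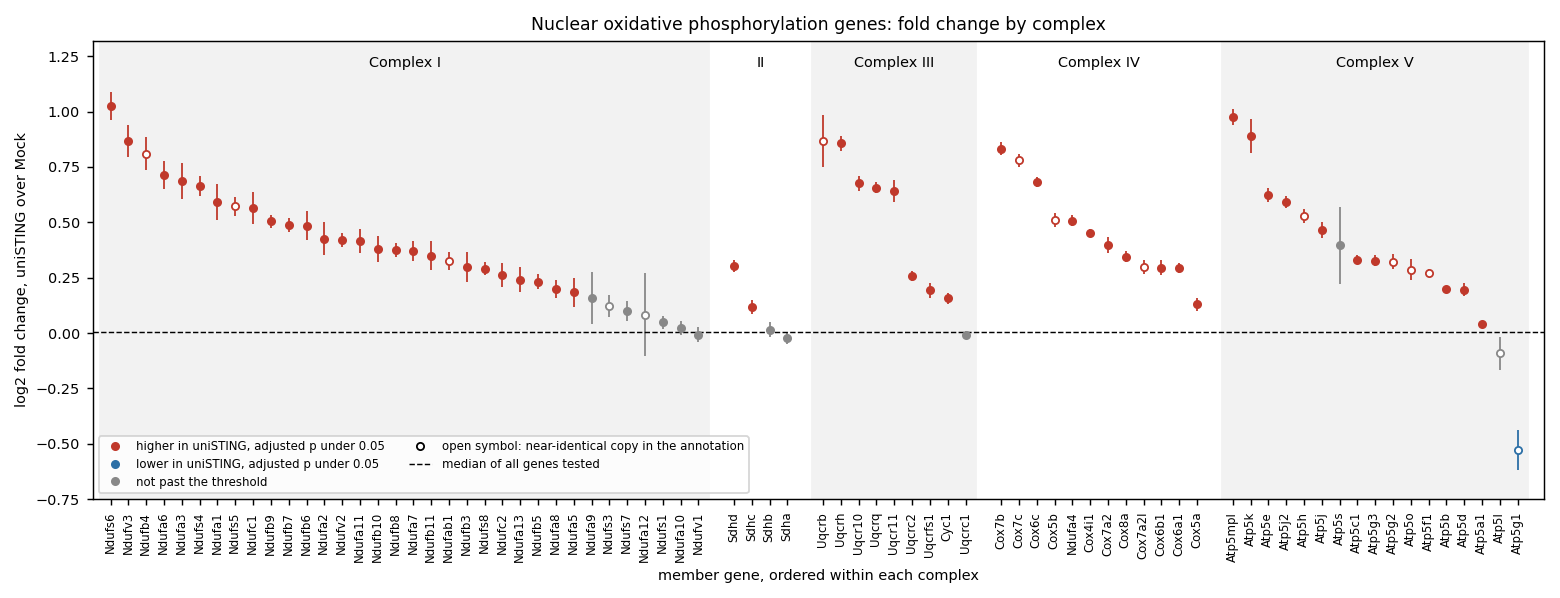
Log2 fold change of uniSTING over Mock for the members shown, ordered within complexes I to V, with the edgeR standard error as bars; the dashed line is the median of all genes tested. Most members lie between 0 and 1, all 12 members of complex IV are above the line, and Atp5g1, an open symbol, lies at -0.53.

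As a share of all counts, the members together took 1.38% and 1.39% in the uniSTING libraries, against 1.14% in both Mock libraries, a ratio of 1.21. This sum is weighted to the 2 most abundant ATP synthase genes, and without Atp5b and Atp5a1 the ratio was 1.26. By complex, the ratio of summed shares was 1.22 for complex I, 1.07 for complex II, 1.23 for complex III, 1.34 for complex IV and 1.17 for complex V. In contrast, the 13 subunits encoded by mitochondrial DNA averaged 1.13% of counts in uniSTING libraries and 1.26% in Mock libraries, a ratio of 0.896. This sum is uneven, with mt-Co1 at a mean of 4878 CPM in Mock cells. There mt-Co2 had 11.2, mt-Co3 4.80, mt-Atp6 7.42 and mt-Nd3 5.95 CPM, and mt-Atp8 had at most 7 counts in a library. Only uniquely mapped reads were counted, and whether this lowered these values was not tested. The mitochondrial subunits of complex V averaged 7.0e-04% of counts in uniSTING libraries and 7.7e-04% in Mock libraries. The ratio of 0.896 therefore says little about complex V, and for complex IV it rests mostly on mt-Co1. The 3 tested but not called were mt-Co2, mt-Co3 and mt-Atp6. Of the 12 tested mitochondrial subunits, 0 were higher and 9 were lower by edgeR, with a median log2 fold change of -0.17, against backgrounds of 24.9% higher and 25.4% lower. They are short, with a median exonic length of 870.5 bases, and with the length trend removed 0 were higher and 9 lower, with a median of -0.40.

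Complex I, the NADH:ubiquinone oxidoreductase, had 27 of 35 members higher, 0 lower and a median log2 fold change of 0.37. Its 2 classes of subunit differed in their counts. Among the 28 supernumerary subunits 25 were higher, with a median of 0.40, whereas among the 7 core subunits 2 were higher, with a median of 0.10. The difference between classes was not tested, since genes are not replicates.

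Ndufs6, a zinc-binding supernumerary subunit of the NADH-oxidising arm (chr13:73467957-73476661 in GRCm39, minus strand), had 52.7 and 51.8 CPM in uniSTING cells, against 25.8 and 25.6 CPM in Mock cells. The libraries of a group were close together and the groups were far apart. The log2 fold change was 1.02 (SE 0.06, edgeR adjusted p = 2.46e-07). Ndufv3, a supernumerary subunit of the NADH-binding module, had 33.7 and 32.5 CPM in uniSTING cells, against 17.4 and 18.8 CPM in Mock cells, a log2 fold change of 0.87 (SE 0.07, edgeR adjusted p = 2.83e-06). It was the member with the largest change among those with a coding length of 600 bases or more.

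Ndufb4, a supernumerary subunit of the membrane arm, had 46.4 and 43.3 CPM in uniSTING cells and 27.1 and 24.1 CPM in Mock cells (log2 fold change 0.81). Ndufa6, a member of the LYR family that docks an acyl carrier protein on the complex, had 47.5 and 49.1 CPM in uniSTING cells and 29.8 and 29.1 CPM in Mock cells (0.71). Ndufa3, a small membrane-anchored subunit, had 22.0 and 24.4 CPM in uniSTING cells and 14.8 and 14.2 CPM in Mock cells (0.69). In all 3 genes both uniSTING libraries were above both Mock libraries, with edgeR adjusted p of 6.46e-06, 4.07e-06 and 3.65e-05.

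The most abundant member of complex I per length was Ndufb9, another LYR family subunit, at 106 CPM per kb in Mock cells. It had 157 and 154 CPM in uniSTING cells, against 108 and 111 CPM in Mock cells, a log2 fold change of 0.50 (SE 0.03, edgeR adjusted p = 1.86e-07). Of its exonic length 19.5% overlapped another gene. Ndufs4, a supernumerary subunit whose loss is a model of Leigh syndrome in mice (chosen after its values were seen), had 73.5 and 76.3 CPM in uniSTING cells, against 48.1 and 46.6 CPM in Mock cells, a log2 fold change of 0.66.

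The core subunits of complex I had smaller fold changes. Ndufv2, which holds an iron-sulfur cluster beside the flavin site, had 190 and 180 CPM in uniSTING cells, against 138 CPM in both Mock libraries (log2 fold change 0.42, edgeR adjusted p = 1.18e-06). Ndufs8, another iron-sulfur subunit, had 116 and 117 CPM in uniSTING cells, against 93.9 and 96.1 CPM in Mock cells (0.29). These were the 2 core subunits that passed. Ndufv1, which carries the flavin that accepts electrons from NADH, had 135 and 143 CPM in uniSTING cells, against 138 and 142 CPM in Mock cells, and the groups overlapped (-0.01, edgeR adjusted p = 0.875). Ndufs1, an iron-sulfur subunit, had a log2 fold change of 0.05 and did not pass. Ndufs3 and Ndufs7, at 0.12 and 0.10, did not pass either, but both did without uniSTING replicate 1 (0.15 and 0.14).

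Ndufa9, a supernumerary subunit near the quinone site, had the widest spread of any member in uniSTING cells, with 70.6 and 99.9 CPM, against 74.7 and 79.8 CPM in Mock cells. Its log2 fold change of 0.16 did not pass, and without uniSTING replicate 1 it was 0.37. That fit holds 1 uniSTING library, so it does not measure the spread between the uniSTING libraries. Ndufa5 was called at 0.18 but lost the call whichever library was left out, with log2 fold changes between 0.15 and 0.21. Ndufa13 lost it without Mock replicate 2 (0.19).

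Complex II, succinate dehydrogenase, is the complex with no subunit encoded by mitochondrial DNA. Its 2 catalytic subunits did not pass. Sdha, the flavoprotein that oxidises succinate, had 188 and 192 CPM in uniSTING cells, against 190 and 197 CPM in Mock cells. Sdhb, the iron-sulfur subunit, had 126 and 133 CPM in uniSTING cells, against 126 and 131 CPM in Mock cells. In both genes the groups overlapped, at log2 fold changes of -0.02 and 0.02.

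Both membrane anchors of complex II were higher. Sdhd, its most abundant subunit per length at 130 CPM per kb in Mock cells, had 201 and 195 CPM in uniSTING cells, against 158 and 163 CPM in Mock cells (log2 fold change 0.30, SE 0.03, edgeR adjusted p = 5.17e-06). Sdhc had 139 and 146 CPM in uniSTING cells, against 132 and 131 CPM in Mock cells, a log2 fold change of 0.12 (SE 0.03, edgeR adjusted p = 0.00914). The Sdhc call was lost without Mock replicate 1 (0.11) and without uniSTING replicate 2 (0.07). The median of the 4 genes was 0.07.

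Complex III, the cytochrome bc1 complex, had 8 of 9 members higher and the highest median among the complexes, 0.64. Its 5 small subunits were all higher, with log2 fold changes from 0.64 to 0.87. The 4 subunits classed as core here (Cyc1, Uqcrfs1, Uqcrc1 and Uqcrc2) had a median of 0.18. Of these, Uqcrc1 and Uqcrc2 are core proteins by name and are not catalytic. Uqcrh, the acidic hinge protein that helps cytochrome c dock, had 119 and 117 CPM in uniSTING cells, against 65.3 and 64.4 CPM in Mock cells (log2 fold change 0.86, SE 0.03, edgeR adjusted p = 6.49e-09). Uqcr10, the most abundant small subunit per length at 126 CPM per kb in Mock cells, had 116 and 119 CPM in uniSTING cells, against 73.9 and 73.8 CPM in Mock cells (0.68, edgeR adjusted p = 3.53e-08). For both genes the libraries of a group lay close together and the groups were well apart.

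Uqcrb, a ubiquinone-binding subunit, had 83.6 and 76.8 CPM in uniSTING cells, against 35.5 and 51.4 CPM in Mock cells. Its 2 Mock libraries differed by 1.45-fold, so the size of its log2 fold change of 0.87 (SE 0.12, edgeR adjusted p = 1.18e-04) rests on them: it was 0.63 without Mock replicate 1 and 1.17 without Mock replicate 2. Among the core subunits, Uqcrc1 had 428 and 432 CPM in uniSTING cells, against 434 and 432 CPM in Mock cells, and did not pass. Uqcrc2, its partner core protein, passed at 0.26, as did the haem-carrying Cyc1 at 0.16 and the Rieske iron-sulfur protein Uqcrfs1 at 0.19.

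All 12 members of complex IV, cytochrome c oxidase, were higher, with a median of 0.42 and a range from 0.13 for Cox5a to 0.83 for Cox7b. Because its catalytic core is encoded by mitochondrial DNA, every nuclear member is a small structural or regulatory subunit. Cox7b, needed for assembly of the complex, had 147 and 148 CPM in uniSTING cells, against 84.2 and 82.1 CPM in Mock cells (SE 0.03, edgeR adjusted p = 4.63e-09). Cox7c had 145 CPM in both uniSTING libraries, against 84.8 and 84.2 CPM in Mock cells, a log2 fold change of 0.78. Cox6c had 253 and 254 CPM in uniSTING cells, against 157 and 159 CPM in Mock cells, a log2 fold change of 0.68. In these 3 genes the spread within a group was small beside the distance between groups.

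Cox8a was the most abundant member of the complex per length, at 469.5 CPM per kb in Mock cells, and had 361 and 376 CPM in uniSTING cells, against 287 and 294 CPM in Mock cells (log2 fold change 0.34, edgeR adjusted p = 8.64e-07). Cox4i1, which binds ATP as a regulator of the oxidase and was chosen after its values were seen, had 649 and 661 CPM in uniSTING cells, against 479 and 480 CPM in Mock cells (0.45). Ndufa4, named for complex I but a subunit of complex IV, was higher at 0.51. Cox7a2l, a factor that joins complexes III and IV into supercomplexes, was higher at 0.30. The 8 isoforms known from muscle, testis, lung or hypoxia (Ndufa4l2, Cox4i2, Cox6a2, Cox6b2, Cox7a1, Cox7b2, Cox8b and Cox8c) summed to 16 and 12 counts in uniSTING libraries and 12 and 14 counts in Mock libraries, and were not tested. Cox7b2, Cox8b and Cox8c had no count.

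**Figure D2:**
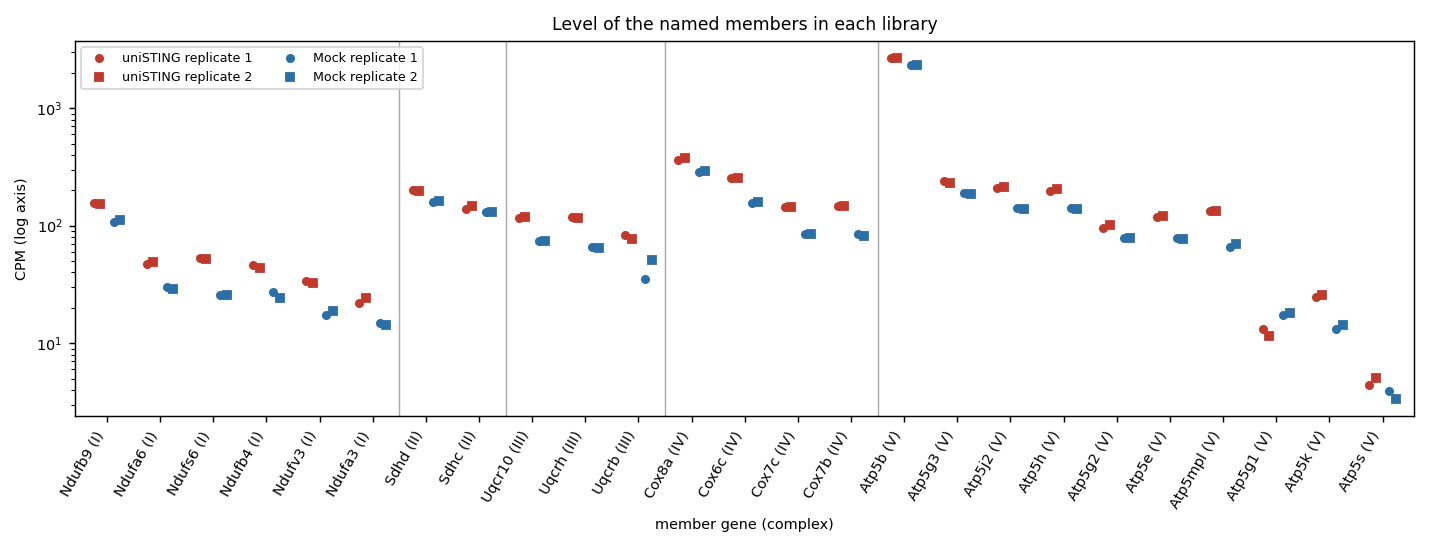
CPM on a log axis for the 25 members named by a set rule, one symbol per library, with uniSTING in red to the left of Mock in blue and vertical lines between complexes. The red symbols lie above the blue ones for every gene shown except Atp5g1, and the Mock libraries of Uqcrb, at 35.5 and 51.4 CPM, stand apart from each other.

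Complex V, the ATP synthase, had 14 of 17 members higher, 1 lower and a median log2 fold change of 0.33. Its F1 sector, which contains the catalytic head that makes ATP, had 5 of 5 subunits higher at a median of 0.20. The beta subunit gene Atp5b was the most abundant member of all per length, at 549.7 CPM per kb in Mock cells. It had 2669 and 2684 CPM in uniSTING cells, against 2342 and 2316 CPM in Mock cells (log2 fold change 0.20, SE 0.01, edgeR adjusted p = 1.42e-07). The alpha subunit gene Atp5a1 was 1.03-fold higher, and lost its call without either Mock library or without uniSTING replicate 2, at log2 fold changes between 0.03 and 0.04. Atp5e, the epsilon subunit, had 119 and 121 CPM in uniSTING cells, against 79.3 and 77.0 CPM in Mock cells (0.62).

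The small membrane subunits of the ATP synthase had 3 of 4 genes higher, with a median of 0.74. Atp5mpl, a proteolipid bound to the membrane sector (chr12:111927809-111933411 in GRCm39, minus strand), had 134 CPM in both uniSTING libraries, against 65.5 and 70.5 CPM in Mock cells (log2 fold change 0.97, SE 0.04, edgeR adjusted p = 6.24e-09). Atp5k, subunit e, which helps ATP synthase dimers form, had 24.9 and 25.9 CPM in uniSTING cells, against 13.1 and 14.3 CPM in Mock cells (0.89, SE 0.08, edgeR adjusted p = 3.33e-06). Atp5j2, subunit f, had 209 and 215 CPM in uniSTING cells, against 142 and 140 CPM in Mock cells (0.59). Atp5l, subunit g, was the exception, with 17.9 and 19.4 CPM in uniSTING cells, against 19.9 and 20.1 CPM in Mock cells, and did not pass (-0.09, edgeR adjusted p = 0.342).

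All 4 subunits of the peripheral stalk, which holds the head against rotation, were higher, with a median of 0.38. Atp5h, subunit d, led them with 196 and 206 CPM in uniSTING cells, against 141 and 138 CPM in Mock cells (log2 fold change 0.53, edgeR adjusted p = 1.62e-07). Atp5o, which joins the stalk to the head, was higher at 0.29, with 47.9% of its exonic length overlapping another gene. Atp5s, a coupling factor, was the member just inside the minimum, with 83 and 126 counts in uniSTING libraries and 69 and 74 counts in Mock libraries, and did not pass (0.40, SE 0.17). Ndufb2 of complex I was just outside it, with 42 and 69 counts in uniSTING libraries and 51 and 58 counts in Mock libraries.

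The c ring, the proton-driven rotor, is built from a single mature protein encoded by 3 genes, of which 2 were higher and 1 was lower. Atp5g3 had 239 and 230 CPM in uniSTING cells, against 188 and 186 CPM in Mock cells (log2 fold change 0.33, edgeR adjusted p = 2.18e-06). Atp5g2 had 95.97 and 100.4 CPM in uniSTING cells, against 79.0 and 78.4 CPM in Mock cells (0.32, edgeR adjusted p = 2.09e-05). Atp5g1 (chr11:95959678-95966496 in GRCm39, minus strand) had 13.2 and 11.4 CPM in uniSTING cells, against 17.3 and 18.0 CPM in Mock cells, and was the 1 member that fell (-0.53, SE 0.09, edgeR adjusted p = 6.10e-04).

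The value of Atp5g1 depends on how reads are divided between near-identical genes. Counting used uniquely mapped reads and no strand, so reads of a member and its near-identical copies are split or lost, and reads of overlapping genes, antisense ones included, are not separated. A copy of at least 97% identity over at least 200 aligned bases was found for 15 members, and exonic overlap with another gene for 27, of which 3 (Ndufa13, Ndufb6 and Atp5o) had over 20% of their length in it. Among the 42 members with neither, 35 were higher, 0 were lower, and the median log2 fold change was 0.36. Compared stretches of the 2 most affected members are printed below because single bases there are what separates member from copy. The sequences are the coding strand of GENCODE M21 transcripts (GRCm38), positions are counted from 1 at the first base of the member's coding sequence, and the capital marks the differing base.
Atp5g1: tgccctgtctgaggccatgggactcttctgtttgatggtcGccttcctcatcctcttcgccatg
Gm10039: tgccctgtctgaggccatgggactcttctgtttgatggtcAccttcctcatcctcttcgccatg
Ndufa12: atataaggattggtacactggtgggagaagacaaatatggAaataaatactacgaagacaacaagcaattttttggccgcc
Gm15920: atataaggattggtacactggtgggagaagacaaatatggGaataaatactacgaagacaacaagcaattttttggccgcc
The Atp5g1 pair differed at 1 position of the 411 bases aligned (the stop codon included), G385A, and the stretch runs from position 345 to 408. The Ndufa12 pair differed at 2 positions of 402, A147G in the stretch from 107 to 187, and T426C. The coding sequence of Atp5l and its copy Gm10221 had 0 differences in 309 bases.

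These copies held most of the counts. Of the counts on Atp5g1 and its copy, 86.1% were assigned to Gm10039, which had 91.9 and 96.6 CPM in uniSTING cells, against 90.04 and 87.7 CPM in Mock cells (log2 fold change 0.09, edgeR adjusted p = 0.0621). With the copy's counts added, Atp5g1 had 105 and 108 CPM in uniSTING cells, against 107 and 106 CPM in Mock cells, and the log2 fold change was 0.0027 (SE 0.03, edgeR adjusted p = 0.952). For Atp5l, 84.4% of counts were on its copies, and adding them gave 140 and 142 CPM in uniSTING cells, against 104 and 105 CPM in Mock cells (0.43, edgeR adjusted p = 5.14e-07). For Ndufa12, 87.5% were on Gm15920. Ndufa12 itself had 10.9 and 11.3 CPM in uniSTING cells, against 13.3 and 7.92 CPM in Mock cells, and did not pass, but passed without Mock replicate 1 (0.48). With the copy it was higher at 0.31 (edgeR adjusted p = 2.02e-05).

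Atp5g2 had 59.0% of the pooled counts on its copies, and its log2 fold change was 0.17 with them, past the threshold. With copies added to all 15 members, 65 of 77 members were higher and 0 lower, with a median of 0.35. For Atp5o the counts of its copy Gm5436 were added more than once, so its value there (0.34, beside 0.29 alone) gives the copy too much weight. In the other 11 members with a copy, the copies held between 0.08% and 21.9% of the pooled counts.

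**Figure D3:**
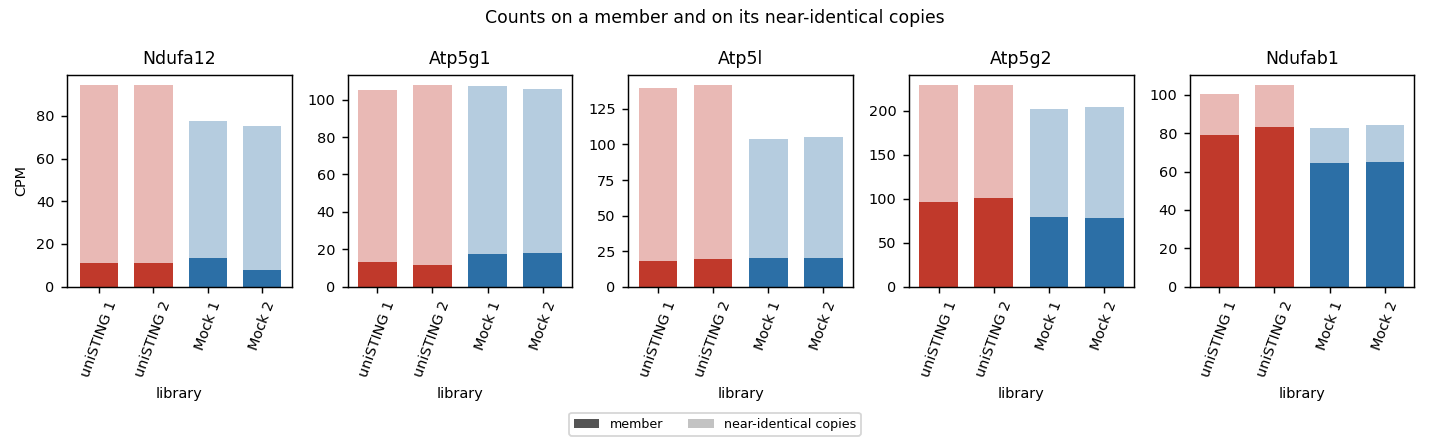
CPM per library on 5 members (solid) and on their near-identical copies (pale, stacked above), uniSTING in red to the left of Mock in blue, each panel from 0. For Ndufa12, Atp5g1 and Atp5l most of each bar is pale, and the whole bars of Ndufa12 and Atp5l are taller in uniSTING while those of Atp5g1 lie between 105 and 108 CPM in all libraries.

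Over all members together, the change was related to length. Across all genes tested, shorter genes had higher fold changes: in the shortest of 5 equal bins of exonic length (up to 2021 bases) the median log2 fold change was 0.22 and 37.9% of genes were higher, against -0.19 and 10.9% in the longest bin. Of the members, 47 were in the shortest bin, where 45 were higher with a median of 0.43, and 41 lay above the median of their bin. A further 19 members were in the next bin (2022 to 3412 bases), with 12 higher and a median of 0.16, beside 0.09 over all genes there. The median exonic length was 1718 bases in the members and 4153 bases over all genes tested.

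When the smooth trend of each library with exonic length was removed, 46 members were higher, against 23.4% of all genes tested, and 3 were lower (Ndufv1, Sdhb and Atp5g1), against 22.2%. The median log2 fold change was then 0.18. By complex the median was 0.18 for I, 0.02 for II, 0.36 for III, 0.20 for IV and 0.20 for V, so complex III stayed at the top of the order and complex II at the bottom. Of the 63 members called higher, 45 kept the call and 18 lost it, and Ndufs1 gained one. Ndufs6 remained at 0.77, Ndufv3 at 0.81, Uqcrh at 0.63 and Atp5mpl at 0.75, all past the threshold, while Cox8a, at 0.07, lost its call.

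Coding length was more closely related to the change than exonic length over the 77 members, but not in every complex. The Spearman correlation of log2 fold change with coding length over the 77 members was -0.64, and -0.45 over the 11352 tested genes with a coding length. With exonic length it was -0.44 over members and -0.36 over all genes tested. In the 62 members without a copy, the correlation with coding length was -0.69. These are descriptions across genes of the same libraries, not independent replicates. Within complex I the correlations were -0.52 with coding and -0.29 with exonic length, over 35 genes. Within complex V exonic length was the closer, at -0.71 against -0.56 for coding length, over 17 genes. Within complex IV, over 12 genes, the correlation was -0.55 with coding length and of the opposite sign, 0.24, with exonic length. With the level of the gene in Mock cells (CPM per kb) the correlation over members was -0.09.

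All 18 members with a coding length under 300 bases were higher, with a median of 0.63, and 16 lay above the median of 0.35 of the 195 tested genes of that class, of which 66.7% were higher. Of 37 members with 300 to under 600 coding bases, 34 were higher and 1 lower, with a median of 0.35, beside 0.22 and 50.4% higher among 1259 genes. Of 22 members with 600 or more, 11 were higher with a median of 0.16, beside -0.03 and 21.3% higher among 9898 genes. All 22 lay above the median of their class, but this class has no upper limit and the longest member has 2181 coding bases. Once the trend in exonic length was removed, 10 of the 22 were negative, 8 were called higher and 2 lower, and the median was 0.02. Core subunits of complexes I and III, catalytic subunits of complex II and F1 subunits of complex V (18 genes) were longer at the median. They had a median coding length of 934.5 bases and a median log2 fold change of 0.14, with 10 higher. The other 59 members had 387 bases and 0.41, with 53 higher. After removal of the trend in exonic length the medians were 0.01 and 0.26, with 6 and 40 higher and 2 and 1 lower. A Spearman correlation of -0.48 with coding length remained over the members after that removal. When the trend in coding length was removed instead, 19 members lost the call, and all of them except Atp5d belonged to the other 59. Ndufs1, a core subunit, gained a call. The count higher among the 18 genes was thus unchanged, and the count among the other 59 fell. The 2 classes overlap in length. Atp5e of the F1 sector, which is not a catalytic subunit itself, has the shortest coding length of all members, 156 bases, and was higher at 0.62. The supernumerary Ndufv3, Ndufa9 and Ndufa10 have 1404, 1131 and 1065 bases and log2 fold changes of 0.87, 0.16 and 0.02. The parts of role and length in the change were not tested apart. With the trend in coding length removed, 45 members were higher, against 23.4% of the tested genes with a coding length, 3 were lower, against 22.2%, and the median was 0.14.

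**Figure D4:**
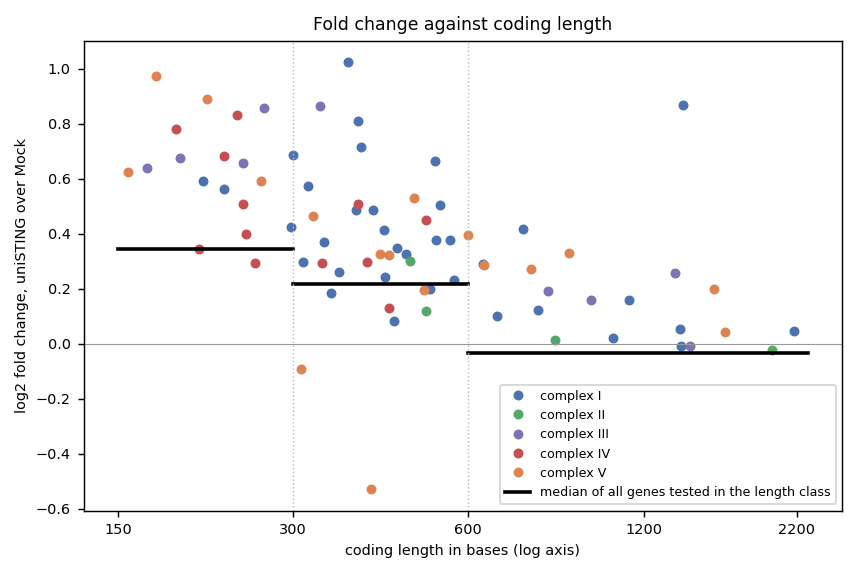
Log2 fold change against coding length (log axis) for the 77 members, coloured by complex; black bars are the medians of all genes tested in 3 classes of coding length (0.35, 0.22 and -0.03). Short members lie highest, all 22 members of the longest class, which has no upper limit, lie above its bar, and Ndufv3 stands out among them at 0.87.

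Several genes beside the rule had subunit roles. Usmg5, a membrane subunit of ATP synthase that RefSeq names Atp5md, had 182 and 194 CPM in uniSTING cells, against 117 and 114 CPM in Mock cells (log2 fold change 0.71, edgeR adjusted p = 4.79e-08). Ndufb1-ps, listed by the rule as a pseudogene symbol but named as the protein-coding Ndufb1 in RefSeq, had 33.8 and 36.0 CPM in uniSTING cells, against 20.7 and 18.9 CPM in Mock cells (0.82). Atpif1, the inhibitor of ATP hydrolysis, was higher at 0.34. Ndufs6b, which missed the minimum through its Mock libraries, had 58 and 81 counts in uniSTING cells, against 20 and 24 counts in Mock cells.

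Assembly factors build the complexes without remaining in them. Of 52 listed, 50 were tested, of which 19 were higher, 3 lower and 28 did not pass, with a median log2 fold change of 0.19, against backgrounds of 24.9% higher and 25.4% lower. With the length trend removed 12 were higher and 4 lower, against 23.4% and 22.2% of all genes tested, and the median was 0.12. Uqcc2, a complex III factor, had 80.4 and 80.3 CPM in uniSTING cells, against 44.5 and 48.5 CPM in Mock cells (0.79, edgeR adjusted p = 3.08e-07). Coa3 and Pet100, complex IV factors, were higher at 0.38 and 1.08, and Tmem70, an ATP synthase factor, at 0.32. The 3 lower ones, named after their values were seen, were Tmem186 at -0.38, Coa5 at -0.17 and Sdhaf1, a complex II factor, with 0.907 and 1.29 CPM in uniSTING cells, against 2.04 and 2.40 CPM in Mock cells. Sco2 and Pet117 had no count.

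Regulators of respiratory and mitochondrial gene expression were called in both directions. Of 24 tested of 25, 5 were higher, 9 lower and 10 did not pass, with a median of -0.05, against backgrounds of 24.9% higher and 25.4% lower. Pprc1, a coactivator of the PGC-1 family, had 127 and 129 CPM in uniSTING cells, against 188 and 195 CPM in Mock cells (log2 fold change -0.58, edgeR adjusted p = 4.30e-08). Lrpprc, which stabilises mitochondrial mRNA, was lower at -0.31, the mitochondrial DNA helicase Twnk at -0.42 and Gabpb2, a subunit of the factor GABP, at -0.19. Nrf1 and Gabpa, factors that bind promoters of respiratory genes (named after their values were seen), were lower at -0.18 and -0.17. The 5 higher ones were Mterf1a at 0.55, Mterf3 at 0.36, Ssbp1 at 0.23, Esrra at 0.21 and Gabpb1 at 0.18. The listed regulators are longer than the subunit genes, with a median exonic length of 4562 bases. With the length trend removed their median was 0.01. Of the 24 tested, 6 were then higher, close to the 23.4% of all genes tested, and 7 were lower, against 22.2%. Nrf1 was then at 0.01, Gabpb2 at 0.12, Gabpb1 at 0.30 and Gabpa at -0.115. Pprc1, Twnk and Lrpprc remained negative, at -0.51, -0.43 and -0.17.

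Among genes that feed or serve the chain, 6 of 23 mobile carriers, nucleotide carriers and quinone-synthesis genes were higher and 1 lower, with a median of 0.04; the share higher is near the 24.9% of all genes tested. Cycs, the electron carrier cytochrome c, had 176 and 178 CPM in uniSTING cells, against 125 and 131 CPM in Mock cells (log2 fold change 0.47, edgeR adjusted p = 2.82e-07). Slc25a5, an ADP/ATP carrier, was higher at 0.26. Of 14 citric acid cycle enzymes, 7 were higher and 1 lower, against backgrounds of 24.9% and 25.4%, with a median of 0.09. The largest increases were Idh3b at 0.34, Suclg1 at 0.21 and Fh1 at 0.20, followed by Mdh2 at 0.17.

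Promoters were searched on both strands for words bound by 3 factors linked to respiratory genes, in RefSeq promoter windows of 250 bases before to 50 bases after a start (GRCm38.p6), which matched 64 of the 77 members. The NRF1 word GCGCATGCG was in 8 of 64 members (12.5%), against 4.27% of 9389 tested genes with a promoter and 1.95% of all 27025 in the table. This word was set after a search with a final C added, which was found in 5 members (7.81%), against 2.41% of tested genes. The YY1 word AANATGGCG was in 10 (15.6%), against 6.29% of tested genes and 2.76% of all. The ETS word CCGGAAGT of GABP was in 5 (7.81%), against 9.7% of tested genes and 4.31% of all. Members with the NRF1 word had a median log2 fold change of 0.31, against 0.35 in the 56 members without it. For YY1 the medians were 0.42 and 0.33, and for the ETS word 0.53 and 0.33. The windows of 4 members, in which the NRF1 word has 25 bases of promoter on each side before the start, are shown on the strand of the gene with the first match in capitals, to place the word in its promoter. Atp5l and Ndufa8 also matched before the start.
Atp5g2: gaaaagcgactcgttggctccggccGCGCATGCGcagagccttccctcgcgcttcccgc
Atp5k: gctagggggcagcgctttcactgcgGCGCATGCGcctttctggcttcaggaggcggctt
Cox6a1: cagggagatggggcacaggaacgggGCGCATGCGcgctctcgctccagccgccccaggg
Ndufa11: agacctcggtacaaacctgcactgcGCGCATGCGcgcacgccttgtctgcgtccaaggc
The windows lie at chr15:102671056-102671114 (minus strand), chr5:108434416-108434474 (minus strand), chr5:115349087-115349145 (minus strand) and chr17:56717677-56717735 (plus strand) in GRCm38.p6, and the word begins 42, 50, 162 and 60 bases before the start. A match is a description of letters, and binding was not measured.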

How the data were processed

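The values used were gene counts of 4 RNA-seq libraries (2 uniSTING, 2 Mock), as the authors deposited them, not normalized. The file headers record featureCounts 2.0.1, run on read pairs over exons grouped by gene, with uniquely mapped reads, no strand setting and the Ensembl 103 gene models of GRCm39. The submitters' processing notes name HISAT2, with no version in the sources used here. Per the labels' protocols, a NEBNext Ultra RNA kit was used; how RNA was selected was not given there. Groups and replicate numbers came from the sample titles. Library totals lay between 17502694 and 25071840 counts, and the common coefficient of variation between libraries of a group was 3.15%.

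The main test was edgeR's quasi-likelihood test (edgeR 4.0.16, R 4.3.3; TMM, default expression filter with a minimum count of 10 and minimum total of 15), with Benjamini-Hochberg adjustment over 12972 genes at a threshold of 0.05. Standard errors derive from the F statistic and are approximate. CPM use the TMM-scaled library size, and CPM per kb divide them by the exonic length of the deposited tables. Near-identical copies were found with BLAST+ 2.17.0. Coding lengths, the longest per gene, came from GENCODE M21 and covered 87.5% of genes tested. The code was tested on simulated data. Alternatives were other size factors, filters and member minimum, DESeq2 1.42.0, limma-voom (limma 3.58.1), a replicate block, each library left out, and removal of the trend with exonic length (lowess, span 0.3). Adding copies and removing trends with coding length, or with length and GC content, were chosen after seeing the data.

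Members, gene lists and tests were chosen with earlier results of these data known. Named members are the 3 largest changes past the threshold in each complex (5 in complexes I and V), members called against the direction of their complex, the most abundant per length, those beside the minimum, and paralogs of a named one; from other lists, at most 4 genes with the smallest p and genes at 0. Any other gene given a value was named after its values were seen. Some listed genes, a member among them, are counted but not reported here by name.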

Additional observations from a re-analysis of the deposited data

How the results depend on the processing

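The count of members higher in uniSTING was between 45 and 67 and the median log2 fold change stayed positive under every alternative run. Other size factors, filters, tests and the minimum of 10 counts left the higher count between 60 and 67 and the median between 0.33 and 0.37. Removing a trend moved the median of all members to 0.18 (exonic length), 0.20 (length and GC content) and 0.14 (coding length). In the same order it moved complex I to 0.18, 0.20 and 0.13, complex III to 0.36, 0.44 and 0.25, complex IV to 0.20, 0.20 and 0.10, and complex V to 0.20, 0.20 and 0.16. Complex II turned to -0.018 with the coding length trend removed. Under these 3 trends the lower members numbered 3, 2 and 3, and with copies added 0. Cox8a and Sdhc turned to -0.052 and -0.079 with the coding length trend removed, and Atp5g1 to 0.0027 with copies added; the causes were not tested, except that the last follows from the added counts. Leaving out 1 library gave 60 to 65 higher members, 1 lower member and a median of 0.32 to 0.37 over all members. The ranges by complex were 0.32 to 0.39 for I, 0.02 to 0.11 for II, 0.58 to 0.66 for III, 0.39 to 0.45 for IV and 0.29 to 0.35 for V. It changed the call of 8 members, 4 lost and 4 gained. Of 400 values for 25 named members, 390 kept direction and side of the threshold, 7 lost the call and 3 turned. With the replicate number as a replicate block 63 members were higher and 1 lower, with a median of 0.34, and the same 63 were called. The labels do not say what a number marks, but both libraries of number 1 held islet genes that number 2 lacked. Deviations of same-numbered libraries had a Pearson correlation of 0.661 and a Spearman correlation of 0.00867 over 10836 genes. With 2 libraries a group, no library could be tested as an outlier of its group. A fit with 1 library left out takes its spread from the other group alone, so calls gained or lost in it are weak evidence.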
